A study of Mus musculus with 9 samples.

Results

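The NLRP3 inflammasome and pyroptosis genes comprised 8 genes chosen by name, namely Nlrp3, Aim2, Nek7, Pycard, Casp1, Casp4, Casp8, and Gsdmd, of 54119 genes in the RNA-seq data. The counts of all transcripts of each gene were summed, and all 8 genes were among the 16273 genes that passed the filter on low counts. The data comprised 9 RNA-seq libraries of primary microglia from C57BL/6J mice, with 3 libraries, numbered 1 to 3, for each of a control siRNA, an siRNA against Chd8, and an siRNA against Tsc2. A small interfering RNA (siRNA) lowers the mRNA that it matches. Chd8 encodes a chromatin remodeler, Tsc2 encodes a subunit of the complex that restrains mTOR signaling, and both are associated with autism. All groups share the same cell source: per the study's methods, mixed glia were grown from whole brains of embryos late in gestation, the microglia were shaken off and transfected with siRNA by a lipid reagent, and replicates were grown from different brains. Per the study, the cells for RNA-seq were stimulated with lipopolysaccharide (LPS), a bacterial cell wall component, and the methods do not count this experiment among those done without LPS. The sample descriptions and the methods for RNA-seq name only the siRNA treatment of 3 days, and no group without LPS is among the 9 libraries. Knockdown is partial by design, so a group models lowered and not absent mRNA.

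An inflammasome is a protein complex that assembles in the cytosol when a sensor meets a danger signal. The sensor NLRP3, assisted by the kinase NEK7, and the DNA sensor AIM2 both recruit the adaptor ASC, encoded by Pycard, which gathers and activates caspase-1. Caspase-1 matures the cytokines IL-1β and IL-18 and cleaves gasdermin D, whose fragments form pores in the plasma membrane and cause the lytic death called pyroptosis. Caspase-11, encoded by mouse Casp4, cleaves gasdermin D when it binds cytosolic LPS, and caspase-8 links death receptors to apoptosis and can also act on gasdermin D. In microglia, Nlrp3 and Il1b mRNA are known to be induced by LPS through NF-kB, a step called priming. The libraries measure mRNA only, and cleavage, assembly, and cell death were not measured.

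Promoter sequences are shown for the genes that the results below turn on: Nlrp3, with the highest level, Casp4, the second in level, and Pycard and Casp8, the 2 genes with a group that did not overlap another. Each window holds the 250 bases before a start site of the RefSeq annotation (GRCm38.p6, the assembly of mm10), written 5′ to 3′ in the direction of the gene. RefSeq windows were matched for 7 of the 8 genes, all but Gsdmd. Capitals mark the NF-kB consensus in Nlrp3 and Casp4 and the PU.1 motif GAGGAAGT or its reverse complement in Pycard, and the Casp8 window held no motif that was searched. The windows are chr11:59541319-59541568 (plus strand, start of Nlrp3-201), chr9:5308599-5308848 (plus strand, start of Casp4-201), chr7:127993868-127994117 (minus strand, start of Pycard-201), and chr1:58802252-58802501 (plus strand, start of Casp8-202).
Nlrp3: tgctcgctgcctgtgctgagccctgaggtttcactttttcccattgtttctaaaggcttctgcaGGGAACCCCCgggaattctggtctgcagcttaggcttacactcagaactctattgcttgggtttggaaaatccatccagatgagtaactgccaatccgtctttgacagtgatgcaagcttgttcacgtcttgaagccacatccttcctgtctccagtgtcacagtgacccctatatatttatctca
Casp4: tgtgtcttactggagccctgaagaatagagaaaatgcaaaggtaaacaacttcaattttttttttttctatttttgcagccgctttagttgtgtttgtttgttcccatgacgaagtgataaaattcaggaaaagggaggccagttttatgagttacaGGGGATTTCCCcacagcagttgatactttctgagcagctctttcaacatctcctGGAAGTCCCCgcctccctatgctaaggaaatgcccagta
Pycard: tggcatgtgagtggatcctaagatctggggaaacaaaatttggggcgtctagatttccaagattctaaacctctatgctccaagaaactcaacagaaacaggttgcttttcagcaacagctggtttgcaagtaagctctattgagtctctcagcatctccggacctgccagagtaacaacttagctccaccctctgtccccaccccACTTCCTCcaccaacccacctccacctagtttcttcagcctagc
Casp8: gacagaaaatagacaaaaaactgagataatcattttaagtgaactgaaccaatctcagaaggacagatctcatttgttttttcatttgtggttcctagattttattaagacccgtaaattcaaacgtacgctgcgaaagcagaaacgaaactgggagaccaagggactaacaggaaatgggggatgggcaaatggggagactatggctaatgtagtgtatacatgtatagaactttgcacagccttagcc

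The NF-kB consensus was found in 3 of the 9 windows of the 7 genes. In the printed window of Nlrp3 it stood 186 to 177 bases before the start, on both strands. The other Nlrp3 window, at the start of Nlrp3-202, held no match. In the printed window of Casp4 it stood at overlapping positions between 93 and 83 bases before the start. It stood there again between 39 and 30 bases, only on the strand opposite to the gene. A further Casp4 window that overlaps the printed one held the same matches. Of all 32851 RefSeq windows of the same length, 7.25% held this consensus. The PU.1 motif stood 44 to 37 bases before the start in Pycard and was also found 113 to 106 bases before a start of Aim2, against 2.44% of all windows. The interferon response motif GAAANNGAAA, in 2.98% of all windows, and the AP-1 motif TGANTCA, in 6.75%, were in 0 of the 9 windows of the 7 genes. Both strands were searched, and a match in these letters is a description of the window and not a binding site.

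Total counts ranged from 16913448 to 33213801 per library, so that the detection floor of 3 counts was 0.0903 to 0.177 CPM, counts divided by the library total and put on one scale. All 8 genes had levels far above this floor in every library, and the floor covers counting error only. Chd8 mRNA was lower in every Chd8 siRNA library (38.3 to 86.8 normalised CPM) than in every control library (93.6 to 118), with a log2 fold change of −0.86 (standard error 0.28). Tsc2 mRNA was lower in every Tsc2 siRNA library (24.6 to 36.5) than in every control library (38.9 to 40.8), with a log2 fold change of −0.38 (standard error 0.15). The decrease was uneven, with log2 differences at numbers 1, 2, and 3 of −0.44, −1.12, and −1.28 for Chd8 and of −0.72, −0.38, and −0.09 for Tsc2, so that the Tsc2 siRNA library 3 was close to its control. Neither decrease passed an FDR of 0.05 in edgeR without the replicate number in the model (adjusted p = 1.00 for both). With the replicate number as a block, edgeR gave adjusted p = 0.00777 for Chd8 and 0.219 for Tsc2. Of 9 microglial markers, 8 passed the filter, and their summed level per transcript length was 434 to 620 TPM (counts per length, scaled to a common total) in each library, against 1.89 to 13.0 for 6 astrocyte markers, 3.14 to 6.29 for 6 markers of the oligodendrocyte lineage, 0.682 to 5.92 for 4 fibroblast and mural markers, 1.40 to 2.63 for 3 endothelial markers, and 0.188 to 0.413 for 4 neuronal markers. The neuronal marker Rbfox3 and the endothelial marker Cldn5 were at or under the floor of 3 counts in all 9 libraries. In bulk samples, fewer cells of a type and less RNA per cell cannot be told apart.

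Per transcript length, Nlrp3 was by far the most abundant of the 8 mRNAs, with a mean of 213 TPM over the 9 libraries, which placed it at rank 125 of the 16273 genes tested. Casp4 followed with 85.0 TPM, and in all 9 libraries Nlrp3 was above Casp4 and Casp4 was above the next gene. Casp1 (41.2 TPM), Aim2 (40.2), Gsdmd (39.4), and Casp8 (38.7) formed a group of nearly equal levels whose ranges over the libraries overlapped. Pycard, the adaptor that both sensors need, was at 10.4 TPM, below these 4 genes in every library, and Nek7 was the lowest, at 4.70 TPM. The order of the last genes rests on the lengths used: with the length of the most abundant transcript alone, Pycard was at 3.43 TPM, below Nek7 at 4.66, because the annotated Pycard-201 is 3800 bases long and Pycard-202 493 bases. Aim2 then was at 24.4 TPM, below Casp8 (39.9) and Gsdmd (32.6). Lengths were taken from the annotation and not estimated from the reads.

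**Figure D1:**
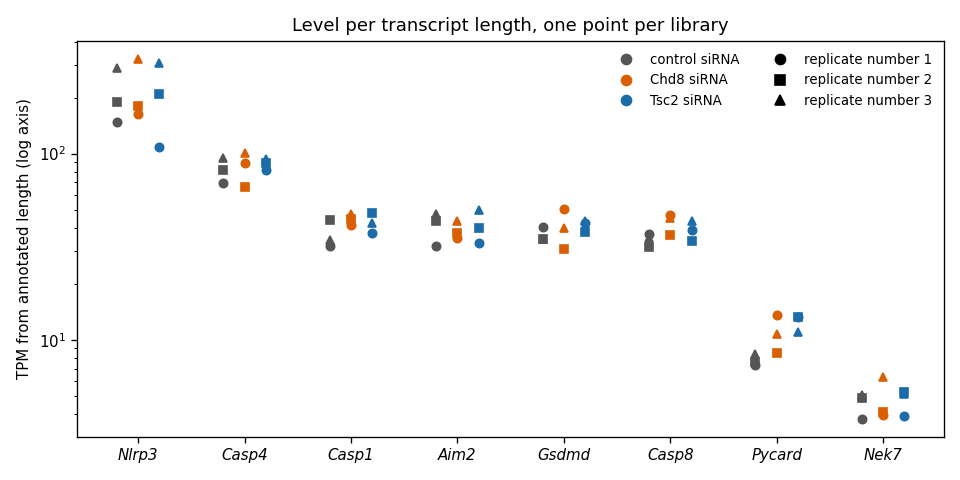
Level per transcript length (TPM, log axis) of the 8 genes, one point per library, coloured by siRNA and shaped by replicate number, in order of the mean over all libraries. Nlrp3 (mean 213) lies above Casp4 (85.0) in all 9 libraries, Casp1, Aim2, Gsdmd, and Casp8 (means of 38.7 to 41.2) overlap, and Pycard (10.4) and Nek7 (4.70) lie below.

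The question for each gene was whether lowering Chd8 or Tsc2 altered its mRNA. No gene of the 8 was called in any comparison by edgeR's quasi-likelihood test (FDR of 0.05 and 1.5-fold), where the percentage called over all 16273 genes was 0 in each comparison as well. At an unadjusted p under 0.05, edgeR found Pycard and Casp8 in Chd8 siRNA-treated microglia and Pycard in Tsc2 siRNA-treated microglia, against 3.82% and 2.61% of all genes, and 0 of the 8 genes between the knockdowns, against 3.10%. DESeq2's Wald test called 0 of the 8 genes in each comparison, with 9, 6, and 5 genes called overall. With the replicate number as a block, edgeR called 87 genes (0.535%) for Chd8 siRNA, 63 (0.387%) for Tsc2 siRNA, and 36 (0.221%) between the knockdowns, and 0 of the 8 genes in each. Without the fold-change threshold these shares were 1.04%, 0.639%, and 0.375%, again with 0 of the 8 genes. In the block fit, unadjusted p-values under 0.05 were held by Casp8, Casp1, and Pycard for Chd8 siRNA (12.8% of all genes), by Pycard for Tsc2 siRNA (10.7%), and by Casp8 and Nlrp3 between the knockdowns (10.7%). None of the 8 genes had a knockdown group wholly below control, as 4.92% (Chd8 siRNA) and 4.23% (Tsc2 siRNA) of all genes had, or the Chd8 siRNA group wholly below the Tsc2 siRNA group, as 4.42% had. Both knockdowns were compared with the same 3 control libraries, so their values are not independent of each other. Group values below are normalised CPM, that is CPM after TMM scaling, and fold changes are on the log2 scale with a standard error (SE).

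Nlrp3 (chromosome 11, 59541568 to 59566956, plus strand) encodes the sensor that gives the inflammasome its name. In control siRNA-treated microglia, its normalised counts were 1084.5, 1517, and 1897 CPM in libraries 1, 2, and 3. In Chd8 siRNA-treated microglia they were 1083, 1614, and 2088 CPM, and in Tsc2 siRNA-treated microglia 777, 1607, and 1904 CPM. In each group the library numbered 1 was the lowest and the library numbered 3 the highest, and the groups overlapped widely. The means were 1499 ± 406 for control, 1595 ± 503 for Chd8 siRNA, and 1429 ± 584 for Tsc2 siRNA (SD, n = 3 each). The log2 fold change was 0.09 (SE 0.34, 95% confidence interval −0.68 to 0.86) for Chd8 siRNA and −0.07 (SE 0.34, −0.84 to 0.70) for Tsc2 siRNA. With the replicate block the intervals narrowed to −0.11 to 0.26 and −0.31 to 0.06, which lie within a 1.5-fold change in either direction. Of the Nlrp3 counts, 92.5% were assigned to Nlrp3-201 and 5.52% to Nlrp3-202, which starts downstream of it.

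Aim2 (chromosome 1, 173350879 to 173466040, plus strand), the sensor of cytosolic DNA, had 71.4, 122, and 99.6 CPM in control libraries 1 to 3. In Chd8 siRNA-treated microglia, the values were 79.2, 119, and 109 CPM. Tsc2 siRNA-treated microglia had 72.9, 104, and 111 CPM. The library numbered 1 was again the lowest in each group, and the log2 fold change was 0.07 (SE 0.24) for Chd8 siRNA and −0.02 (SE 0.24) for Tsc2 siRNA. The gene overlaps Cadm3 on the opposite strand, whose 190 counts over all libraries compare with 20653 for Aim2. Aim2-204 took 39.3% of the counts, and 2 minor transcripts had groups that did not overlap, against 8.77% (Chd8 siRNA) and 8.39% (Tsc2 siRNA) of all 41633 transcripts tested. Aim2-201, a processed transcript with 2.60% of the counts, had 1.99 ± 0.29 CPM in control, 3.05 ± 0.52 in Chd8 siRNA-treated microglia, and 2.48 ± 0.36 in Tsc2 siRNA-treated microglia (SD, n = 3 each). Aim2-203, with 0.741% of the counts, had 1.23 ± 0.22, 0.403 ± 0.150, and 0.577 ± 0.070 CPM (SD, n = 3 each), a level near the floor. Its Chd8 siRNA group also lay wholly below its Tsc2 siRNA group, where 8.48% of all transcripts did not overlap in either direction. No transcript was called (edgeR, 0% of all transcripts).

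Nek7 (chromosome 1, 138482875 to 138620141, minus strand), a mitotic kinase that licenses NLRP3, was measured at 38.3, 54.7, and 46.4 CPM in control libraries 1 to 3. The Chd8 siRNA libraries had 37.8, 52.3, and 58.3 CPM. The Tsc2 siRNA libraries had 39.2, 56.3, and 44.8 CPM. All groups overlapped, and the log2 fold changes were 0.09 (SE 0.21) and 0.01 (SE 0.21). Nek7-202 took 96.0% of the counts, and 3 provisional or antisense genes that overlap Nek7 held 4 to 385 counts against 9922 for Nek7.

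Pycard (chromosome 7, 127989708 to 127993867, minus strand) encodes ASC, the adaptor between sensor and caspase-1. It was the gene of the 8 with the largest difference for both knockdowns. Control libraries 1 to 3 had 18.0, 23.0, and 18.5 CPM. Chd8 siRNA libraries had 33.6, 26.9, and 21.3 CPM. Tsc2 siRNA libraries had 28.4, 30.6, and 26.5 CPM. All 3 Tsc2 siRNA libraries were above all 3 control libraries, a separation in this direction that 3.87% of all genes had, whereas 1 Chd8 siRNA library, numbered 3, fell within the control range. The means were 19.8 ± 2.7, 27.3 ± 6.2, and 28.5 ± 2.0 CPM for control, Chd8 siRNA, and Tsc2 siRNA (SD, n = 3 each). The log2 fold change was 0.52 (SE 0.19, 95% confidence interval 0.10 to 0.94) for Tsc2 siRNA and 0.46 (SE 0.19, 0.04 to 0.88) for Chd8 siRNA, each with edgeR adjusted p = 1.00. In two-sided exact permutation tests, p was 0.1 for Tsc2 siRNA, the smallest that 3 libraries against 3 allow, and 0.2 for Chd8 siRNA. With the replicate block, edgeR gave adjusted p = 0.135 and 0.163. At each replicate number Pycard was higher in the knockdown library than in the control library for both siRNAs, a pattern that 17.7% (Chd8 siRNA) and 15.5% (Tsc2 siRNA) of all genes showed. Casp1, Casp8, and Gsdmd had it for both siRNAs as well.

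The difference in Pycard was present in both annotated transcripts. Pycard-201, with 69.0% of the counts, had 14.0 ± 2.6 CPM in control, 18.9 ± 5.3 in Chd8 siRNA-treated microglia, and 19.0 ± 1.0 in Tsc2 siRNA-treated microglia (SD, n = 3 each), and only the Tsc2 siRNA group lay wholly above control, where 8.39% of all transcripts tested did not overlap in either direction. Pycard-202, with 31.0%, had 5.84 ± 0.43, 8.45 ± 0.67, and 9.45 ± 2.44 CPM (SD, n = 3 each), and both knockdown groups lay wholly above control, against 8.77% (Chd8 siRNA) and 8.39% (Tsc2 siRNA) of all transcripts without overlap. These were estimates of a short and a long transcript from 5407 counts in all libraries, the fewest of the 8 genes. The provisional gene Gm45205, which overlaps Pycard on the opposite strand, held 122 counts.

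Casp1 (chromosome 9, 5298517 to 5307265, plus strand) encodes the protease that the inflammasome activates, and all its counts were assigned to Casp1-201. Its counts in control libraries 1 to 3 were 94.1, 147, and 94.0 CPM. Chd8 siRNA libraries gave 114, 167, and 130 CPM, and Tsc2 siRNA libraries 109, 152, and 109 CPM. The library numbered 2 was the highest in each group, so that the groups overlapped although every knockdown library was above the control library of its own number. The log2 fold change was 0.30 (SE 0.22) for Chd8 siRNA and 0.15 (SE 0.22) for Tsc2 siRNA. For Chd8 siRNA the standard error dropped to 0.08 with the replicate block, with edgeR adjusted p = 0.0895. The differences at numbers 1, 2, and 3 were 0.28, 0.19, and 0.46 on the log2 scale for Chd8 siRNA.

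Casp4 (chromosome 9, 5308828 to 5336783, plus strand) starts 1562 bases beyond the end of Casp1 and encodes caspase-11, the sensor of cytosolic LPS. Control libraries 1 to 3 had 178, 233, and 219 CPM, Chd8 siRNA libraries 213, 220, and 234 CPM, and Tsc2 siRNA libraries 206, 233, and 205 CPM. The groups overlapped throughout. The log2 fold change was 0.08 (SE 0.13) for Chd8 siRNA and 0.03 (SE 0.13) for Tsc2 siRNA, and the 95% confidence intervals of −0.20 to 0.37 and −0.25 to 0.32 lie within a 1.5-fold change. Casp4-201 took 79.1% of the counts. Casp1 and Casp4 are related genes, and how reads common to both were divided was set by the authors' quantification.

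Casp8 (chromosome 1, 58795374 to 58847503, plus strand) encodes the initiator caspase of death receptors. Control libraries 1 to 3 had 143, 133, and 128 CPM. The Chd8 siRNA libraries had 167, 175, and 156 CPM. The Tsc2 siRNA libraries had 148, 139, and 142 CPM. All 3 Chd8 siRNA libraries were above all 6 other libraries, while the Tsc2 siRNA and control libraries overlapped. The means were 135 ± 7 for control, 166 ± 10 for Chd8 siRNA, and 143 ± 5 CPM for Tsc2 siRNA (SD, n = 3 each). The log2 fold change for Chd8 siRNA was 0.30 (SE 0.11, 95% confidence interval 0.07 to 0.54), below the 1.5-fold threshold, with edgeR adjusted p = 1.00 and, with the replicate block, 0.0799. The exact permutation test gave p = 0.1, the smallest possible, and 4.17% of all genes had the Chd8 siRNA group wholly above control. For Tsc2 siRNA the log2 fold change was 0.09 (SE 0.11).

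Among the 4 transcripts of Casp8, only Casp8-202 had a Chd8 siRNA group without overlap with control. It starts at the window printed above and took 37.5% of the counts. Casp8-202 had 49.1 ± 3.8 CPM in control, 69.6 ± 8.4 in Chd8 siRNA-treated microglia, and 47.5 ± 11 in Tsc2 siRNA-treated microglia (SD, n = 3 each), and the Chd8 siRNA group lay wholly above both other groups. Of all transcripts tested, 8.77% did not overlap between Chd8 siRNA and control and 8.48% between the knockdowns, in either direction. Its log2 fold change was 0.50 (SE 0.18) against control and 0.55 (SE 0.18) against Tsc2 siRNA, neither called (edgeR adjusted p = 1.00). Casp8-201, with 25.4% of the counts, had 36.4 ± 4.0 CPM in control and 37.1 ± 3.0 in Chd8 siRNA-treated microglia (SD, n = 3 each). Casp8-203, with 32.9%, had 43.3 ± 12.3 and 52.4 ± 10.3 CPM (SD, n = 3 each). Casp8-204, with 4.23%, had 5.55 ± 2.39 and 7.72 ± 6.24 CPM (SD, n = 3 each), a log2 fold change of 0.47 (SE 0.92) near that of Casp8-202 but with overlap. Whether the transcripts differ from each other in their response was not tested. The provisional gene Gm37760 on the same strand held 1923 counts against 31550 for Casp8.

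Gsdmd (chromosome 15, 75862327 to 75867408, plus strand) encodes gasdermin D, the pore protein of pyroptosis. Control libraries 1 to 3 had 116, 110, and 88.6 CPM, Chd8 siRNA libraries 140, 111, and 102 CPM, and Tsc2 siRNA libraries 123, 114, and 108 CPM. Here the library numbered 1 was the highest in each group, the reverse of Nlrp3, and the groups overlapped. Gsdmd-201 took 80.8% of the counts. The log2 fold change was 0.16 (SE 0.15) for Chd8 siRNA and 0.13 (SE 0.15) for Tsc2 siRNA. Each knockdown library was above the control library of its own number, by 0.27, 0.00, and 0.20 on the log2 scale for Chd8 siRNA and by 0.08, 0.05, and 0.29 for Tsc2 siRNA.

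**Figure D2:**
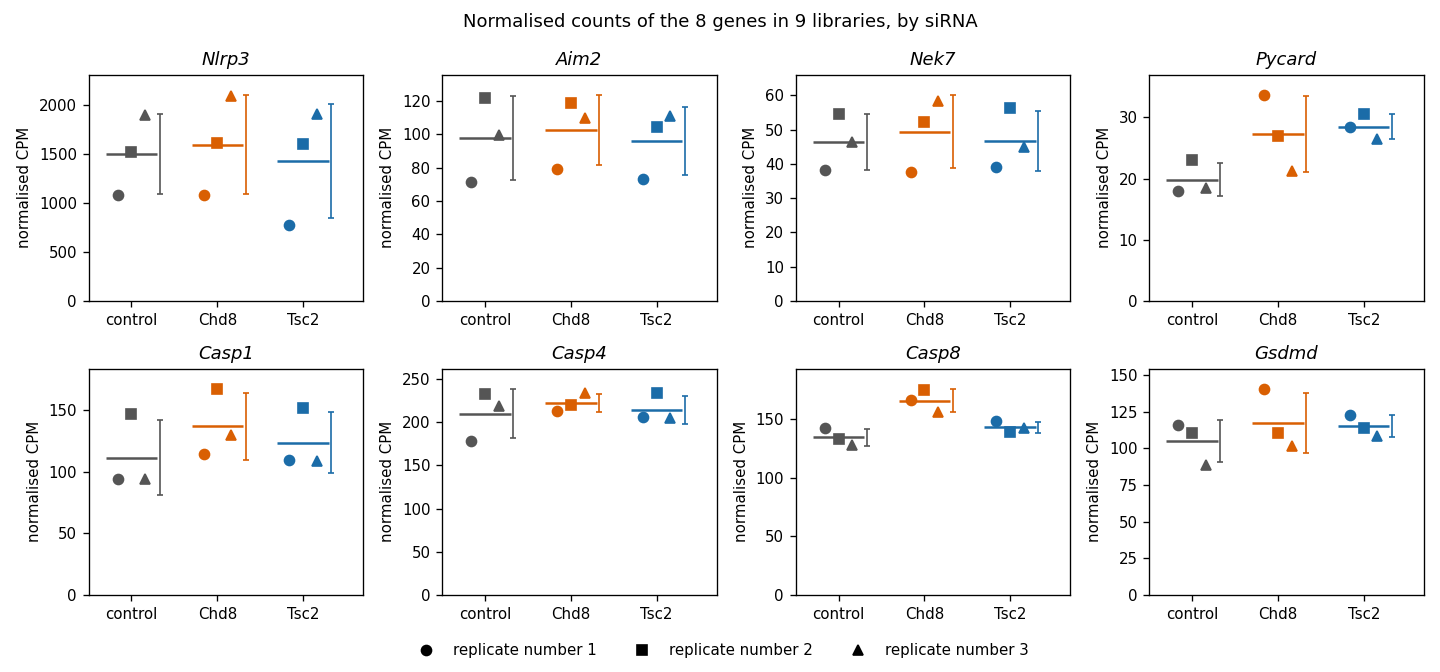
Normalised counts (CPM, each axis from 0) of the 8 genes in control, Chd8, and Tsc2 siRNA libraries, with symbols for the replicate number, a horizontal line for the group mean and a bar for ± SD (n = 3). The Chd8 siRNA libraries of Casp8 (156 to 175) and the Tsc2 siRNA libraries of Pycard (26.5 to 30.6) lie wholly above control, and Nlrp3 is lowest in number 1 in every group.

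Taken over the 8 genes, the log2 fold change for Chd8 siRNA was above 0 in 8 of 8, where 47.8% of all genes were above 0, with a range of 0.07 to 0.46 and a median of 0.13 against −0.02 over all genes. For Tsc2 siRNA it was above 0 in 6 of 8, where 47.6% of all genes were, with a range of −0.07 to 0.52 and a median of 0.06 against −0.02. Leaving out single libraries turned the sign of Nlrp3, Casp4, Nek7, and Aim2 for Chd8 siRNA and of these 4 and Casp1 for Tsc2 siRNA in fits without the block. With the block, only Nek7 turned for Chd8 siRNA, and Nlrp3, Casp4, Nek7, and Aim2 turned for Tsc2 siRNA. Pycard, Casp8, and Gsdmd stayed above 0 for both knockdowns in all fits with a library left out, with or without the block, but their values moved. For Chd8 siRNA the log2 fold change then was 0.25 to 0.62 for Pycard, lowest without the Chd8 siRNA library 1, 0.25 to 0.35 for Casp8, and 0.012 to 0.26 for Gsdmd, the last being lowest without the Chd8 siRNA library 1. For Tsc2 siRNA it was 0.39 to 0.64 for Pycard, 0.056 to 0.14 for Casp8, and 0.026 to 0.21 for Gsdmd, the last being lowest without the control library 3. Casp1 for Chd8 siRNA was at 0.13 without the Chd8 siRNA library 2 and at 0.54 without the control library 2. Between the knockdowns, 7 of 8 log2 differences (Chd8 siRNA minus Tsc2 siRNA) were above 0, where 50.6% of all genes were, and ranged from −0.06 for Pycard to 0.21 for Casp8. At each replicate number the Chd8 siRNA library was above the Tsc2 siRNA library for Nlrp3, Casp1, and Casp8, a pattern of 16.2% of all genes. Casp8 was the only one of the 8 genes without overlap between the knockdowns, in a direction that 4.02% of all genes had, with an exact permutation p of 0.1, the smallest possible, and an interval of the difference of −0.02 to 0.45. For Pycard the interval was −0.48 to 0.35.

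**Figure D3:**
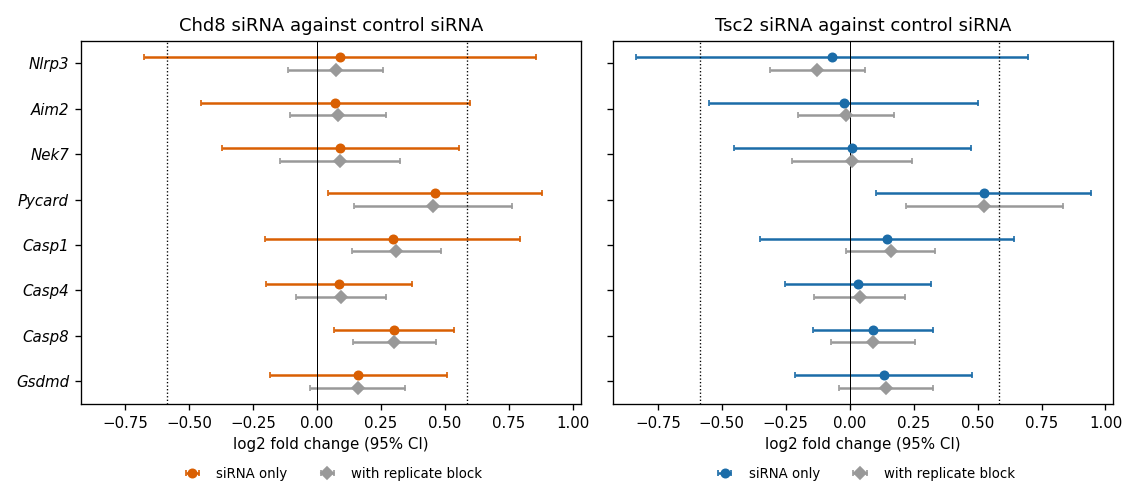
Log2 fold change against control siRNA with 95% confidence interval for the 8 genes, from the fit with siRNA only (circles) and the fit with the replicate block (grey diamonds). Dotted lines mark a 1.5-fold change: the intervals of Pycard (0.04 to 0.88 and 0.10 to 0.94) and of Casp8 for Chd8 siRNA (0.07 to 0.54) lie above 0 without the block, and in that fit those of Nlrp3 are the widest of the 8.

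The replicate number accounted for more of the spread than the siRNA in 6 of the 8 genes. In the sum of squares of log2 CPM over the 9 libraries, its share was 92.3% for Aim2, 90.5% for Nlrp3, 81.4% for Nek7, 76.7% for Casp1, 68.2% for Gsdmd, and 51.2% for Casp4, against a median of 41.6% over all genes. Pycard and Casp8 were the exceptions, with 17.7% and 9.20% for the number and 60.9% and 82.3% for the siRNA, whose median over all genes was 18.2%. A test of the number with the siRNA in the model, added after the data were seen, called 5 of the 8 genes at an FDR of 0.05, where 25.0% of all genes were called. Genes of like level were not compared separately. Nlrp3 differed most, with a log2 difference of 1.01 between numbers 3 and 1 and 0.70 between numbers 2 and 1 (edgeR adjusted p = 2.11e-06). Casp1 (adjusted p = 0.000136) and Aim2 (0.000164) differed by 0.56 and 0.63 between numbers 2 and 1, and Nek7 (0.00800) by 0.50. Gsdmd was lower by 0.35 on the log2 scale in number 3 than in number 1 (edgeR adjusted p = 0.0211). Casp4 (0.188), Pycard (0.289), and Casp8 (0.602) did not pass. Without the Chd8 siRNA library 1, edgeR called 3 of the 8 genes, with adjusted p = 0.0720 for Nek7 and 0.137 for Gsdmd. Gsdmd was also not called without the control library 3 (edgeR adjusted p = 0.112) or the Chd8 siRNA library 3 (0.0709).

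Some other values moved with the replicate number, while others overlapped between numbers. The summed astrocyte markers were at 1.89 to 2.21 TPM in the libraries numbered 1, 2.83 to 3.54 in those numbered 2, and 6.10 to 13.0 in those numbered 3. The fibroblast and mural markers were at 0.742 to 0.986, 0.682 to 1.97, and 2.64 to 5.92 TPM. Other lists had their highest values in number 1, with 5.20 to 6.29, 4.61 to 5.96, and 3.14 to 3.66 TPM for the oligodendrocyte lineage and 2.26 to 2.63, 1.40 to 1.70, and 1.69 to 1.84 TPM for endothelial markers. Neuronal markers were at 0.283 to 0.342, 0.188 to 0.260, and 0.236 to 0.413 TPM, and the microglial markers at 519 to 620, 434 to 499, and 453 to 612 TPM. Total counts were 22778884 to 29744172, 16913448 to 20997419, and 22184872 to 33213801. Their part in the differences of Nlrp3 and the other 4 genes was not tested, and what a shared number marks, for instance a shared brain or day of culture, is not given in the sources used here.

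**Figure D4:**
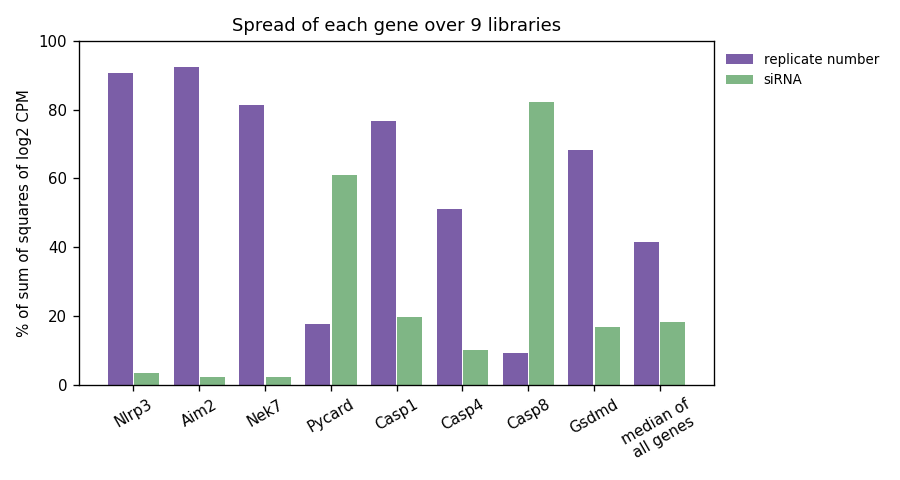
Share of the sum of squares of log2 CPM over the 9 libraries (percent, bars from 0) that the replicate number and the siRNA account for, for each of the 8 genes and as the median over all genes tested. The replicate number holds 92.3% for Aim2 and 90.5% for Nlrp3, and the siRNA holds 82.3% for Casp8 and 60.9% for Pycard.

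Across the 9 libraries, which share siRNA groups and replicate numbers, the pattern of each gene was compared with all other genes tested by Pearson's r of log2 CPM, as a description without a test. The genes most like Nlrp3 were Ect2 (r = 0.98), Tnf (0.98), and Npdc1 (0.98), and those most like Casp1 were Clec12a (0.99), G530011O06Rik (0.99), and Usp8 (0.98). Aim2 was most like Tiprl (0.99), Vopp1 (0.98), and Intu (0.98), and Nek7 most like Tk2, Cers6, and Kynu (0.96 each). Pycard was most like Isg20 (0.96), Fau (0.95), and Msantd4 (0.94), and Casp8 most like Wdr18 (0.96), Clic1 (0.95), and Fbxw11 (0.95). For Casp4 these were Ndufb4 (0.97), Psmb6 (0.96), and Arl6ip5 (0.94), and for Gsdmd they were Mob3a, Tiparp, and Smap1 (0.96 each). Among the 8 genes themselves, r was highest between Nek7 and Aim2 (0.86) and between Nlrp3 and Aim2 (0.83) and lowest between Nlrp3 and Gsdmd (−0.73), while Pycard and Gsdmd had 0.70.

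The wider pathway was taken as 66 further genes in 6 lists, of which 55 passed the filter. Of these 55 genes, 0 were called by edgeR for either knockdown, as of all genes (0%), and 34 were above control for Chd8 siRNA and 27 for Tsc2 siRNA, with medians of 0.06 and −0.0016 on the log2 scale. At an unadjusted p under 0.05, edgeR found 2 of the 55 for Chd8 siRNA (Naip6 and Ly96) and 0 for Tsc2 siRNA, against 3.82% and 2.61% of all genes. With the replicate block these were 18 of the 55 for Chd8 siRNA (13 above and 5 below control) and 9 for Tsc2 siRNA (4 above and 5 below), against 12.8% and 10.7% of all genes. With the replicate block and no fold-change threshold, added after the data were seen, edgeR called Gbp5 for Chd8 siRNA (log2 fold change 0.28, adjusted p = 0.0446), where 1.04% of all genes were called. With a library left out, Gbp5 passed in 2 of 9 such fits (edgeR adjusted p = 0.0234 to 0.203). In the same fit Il1rn, the antagonist of the IL-1 receptor, was higher in Chd8 siRNA- than in Tsc2 siRNA-treated microglia (log2 difference 0.34, adjusted p = 0.0289 from edgeR), where 0.375% of all genes were called. Il1rn passed in 3 of 9 such fits with a library left out (edgeR adjusted p = 0.00338 to 0.298).

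Of the other sensors, 7 of 9 tested genes were above control for each knockdown, and none was called. Ifi204, an interferon-inducible sensor of DNA, had the highest level of this list (410 TPM). Mefv, which encodes the sensor pyrin, had the largest difference for Chd8 siRNA (log2 fold change 0.78, SE 0.55), at a mean of only 2.10 CPM, and was at 1.70 without the control library 1 and 0.49 without the control library 3. Nlrc4, which serves the NAIP receptors of bacterial proteins, had the largest for Tsc2 siRNA (−0.39, SE 0.25, but −0.22 with the block and without the control library 3), and its Tsc2 siRNA libraries lay wholly below control, as in 4.23% of all genes. The 13 genes listed included near-identical Naip copies, whose counts are uncertain.

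Among 15 genes upstream of NLRP3 and caspase-11, 11 were above control for Chd8 siRNA and 9 for Tsc2 siRNA. Gbp5 and Gbp2, interferon-induced GTPases that act on intracellular bacteria, had the highest mean levels (298 and 287 TPM over all libraries). Their order turned with the length of the most abundant transcript (251 and 294 TPM) and in the control libraries (265 and 287 TPM). Their ranges over the libraries (164 to 394 and 167 to 381 TPM) overlapped that of Hsp90ab1 in the same list (152 to 246 TPM). Panx1, a membrane channel, had the largest difference for both, with log2 fold changes of −0.63 (SE 0.34) and −0.74 (SE 0.34) at 2.26 CPM. Of 10 other caspases and death signaling genes, 6 and 3 were above control, Cflar, the inhibitor of caspase-8, was the most abundant (142 TPM), and Casp12 had the largest differences (−0.65 and −1.11, SE 1.07 for each) at 1.13 CPM. Casp12 rested on the control library 3, with 4.03 CPM against 0.339 and 0.493 CPM in the other control libraries, and without it the log2 fold changes were 1.32 and 0.86, or 0.10 and −0.15 with the block. The library numbered 3 was the highest for Casp12 in each group. All 4 tested genes of the other pore and membrane rupture list were below control for both knockdowns, among them Ninj1, which ruptures the membrane after pore formation (68.0 TPM, log2 fold changes −0.19 and −0.20, or −0.03 and −0.04 without the control library 2). Gsdma had the largest differences in this list (−1.72 and −0.94) at 0.443 CPM, close to the floor, as was Gsdma2 (0.465 CPM). With the block and without the control library 3, Gsdma was at −0.58 for Chd8 siRNA, and for Tsc2 siRNA it was at −0.40 without the Tsc2 siRNA library 3 and −1.87 without the Tsc2 siRNA library 2. Of this list, 5 gasdermin genes did not pass the filter.

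Il1b, the main cytokine substrate of caspase-1, was at 1023 TPM over all libraries and had the highest mean of the cytokine list, although Il1rn was above it in the 3 libraries numbered 1 (977 to 1143 TPM, against 555 to 809 TPM for Il1b). Its log2 fold change was 0.06 in Chd8 siRNA-treated and 0.17 in Tsc2 siRNA-treated microglia, with −0.17 to 0.28 and −0.10 to 0.50 when a library was left out. For Tsc2 siRNA, with the block and without the Tsc2 siRNA library 1, edgeR gave a log2 fold change of 0.31 with adjusted p = 0.0420, below the 1.5-fold threshold. Il1b passed in only 1 of 9 such fits with a library left out (edgeR adjusted p up to 0.997). With all libraries, the block fit gave 0.11 (edgeR adjusted p = 0.805). Of the list, 4 and 3 of the 9 tested genes were above control. Il18r1, a receptor subunit for IL-18, had the largest difference for both, −0.68 and −0.75 (SE 0.62 for each), at 0.655 CPM. These too rested on the control library 3 (1.46 CPM, against 0.641 and 0.554 CPM), and without it were −0.11 and −0.19. Il18rap, the other subunit, had 6.26, 11.8, and 7.68 CPM in control libraries 1 to 3 and 5.66, 4.91, and 5.84 CPM in the Chd8 siRNA libraries. The Chd8 siRNA group of Il18rap lay wholly below control (log2 fold change −0.64, SE 0.29), as in 4.92% of all genes. This value was −0.34 without the control library 2, −0.97 from protein-coding transcripts only, and −0.29 with the block and without the Chd8 siRNA library 2. Of 8 priming receptors and adaptors, 6 were above control for Chd8 siRNA and 5 for Tsc2 siRNA. Cd14, the LPS co-receptor, had the highest level (382 TPM), and Ly96, which encodes the MD-2 subunit of the LPS receptor, had the largest differences, with log2 fold changes of 0.82 (SE 0.35) and 0.60 (SE 0.35), the latter being 0.31 without the Tsc2 siRNA library 2 and 0.93 without the control library 2.

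**Figure D5:**
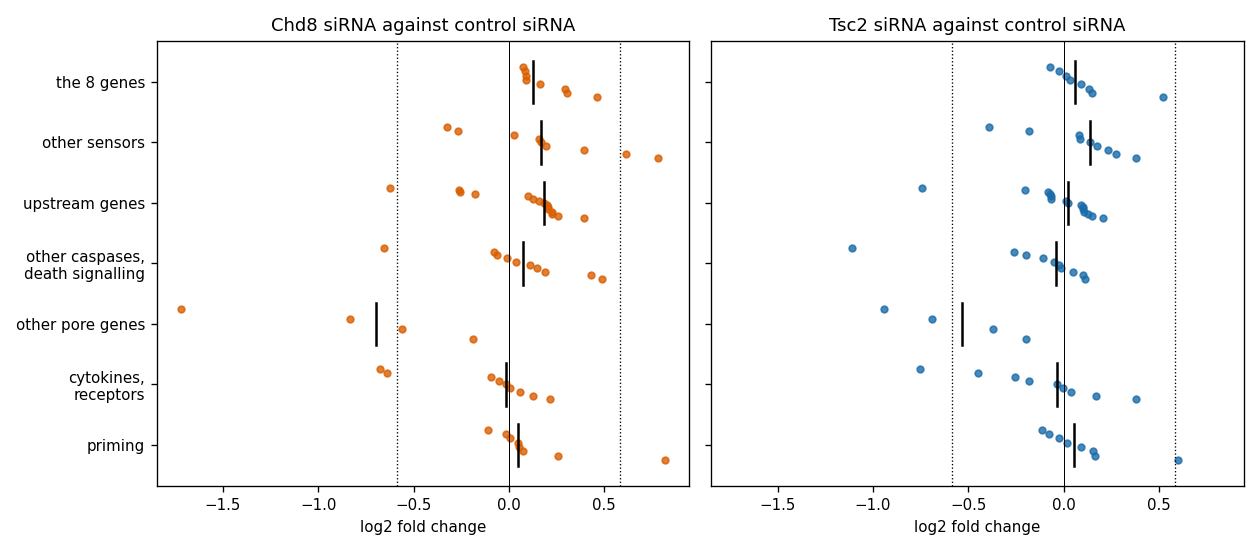
Log2 fold change against control siRNA of each tested gene (points) in the 8 genes and the 6 pathway lists, with a black bar at the median of each list and dotted lines at a 1.5-fold change. The medians lie between −0.70 and 0.19 for Chd8 siRNA and between −0.53 and 0.14 for Tsc2 siRNA, and no gene was called. The lowest median is that of the pore genes, with 4 tested genes, among them Gsdma (0.443 CPM) and Gsdma2 (0.465 CPM) close to the floor.

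For the replicate number, edgeR called 35 of the 55 tested pathway genes (63.6%), against 25.0% of all genes, which were not matched to them in level. Il1a had 90.8, 151, and 96.6 CPM in the libraries numbered 1 and 745 to 1544 CPM in the other 6 libraries, log2 differences of 3.66 and 3.09 for numbers 2 and 3 against number 1 (edgeR adjusted p = 6.87e-10). Il1b had 1399 to 1953 CPM in the libraries numbered 1 and 2723 to 3840 CPM in the others (log2 differences 1.01 and 0.84, edgeR adjusted p = 1.19e-05). The log2 fold changes of Il1a by siRNA were −0.01 for Chd8 and −0.26 for Tsc2. These ranged from −0.55 to 0.69 and from −1.05 to 0.45 when a library was left out. The libraries numbered 1 were also the lowest for Nlrp3 in each group.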

How the data were processed

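RNA-seq was analysed for 9 libraries of primary microglia (3 per siRNA). The authors deposited estimated counts per transcript, made with salmon 0.14.1 on mm10 and imported with tximport, neither normalized nor pooled. The annotation release is not given in the sources used here. Libraries were grouped by the siRNA in the sample descriptions. GENCODE mouse release 21 placed 139852 of the 140948 transcripts in genes, and the other 1096 transcripts held 0.27% of counts. Counts were summed per gene and rounded. Depth and floors are given with the results.

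Genes were tested with edgeR 4.0.16 in R 4.3.3 (filterByExpr, TMM, quasi-likelihood test, all 9 libraries in one fit, siRNA only, Benjamini-Hochberg over all 16273 genes), with calls at FDR 0.05 and 1.5-fold. Transcripts were tested in the same way. Standard errors were calculated back from the F statistic. Single genes were also compared by exact permutation (two-sided, log2 CPM, pseudocount 0.5). The methods of the study name DESeq2, which was run as an alternative (DESeq2 1.42.0), as was limma-voom (limma 3.58.1). The study reports many more genes called for each knockdown at the same thresholds, and the cause of this difference was not tested. Other alternatives were other scalings and filters, protein-coding transcripts only, the 6 libraries compared only, no fold-change threshold, each library left out, and the replicate number as a block.

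The numbers pair the libraries: the deviations of libraries with one number from their group means correlated with r of 0.24 to 0.52 across genes in every pair, and with other numbers with r of at most 0.04. The numbers come from the sample titles.

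The genes, lists, and tests were chosen with earlier results of these data known. The text names all 8 genes, their most abundant and non-overlapping transcripts, and per pathway list the most abundant gene and the largest difference for each knockdown. The other transcripts of Casp8, Nlrp3-202, Naip6, Il1rn, Il1a, Il18rap, Gbp2, and the values of Il1b by number were chosen after they were seen. The scripts were tested on simulated data.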

Additional observations from a re-analysis of the deposited data

How the results depend on the processing

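None of the 8 genes was called for an siRNA in any alternative run, and the lowest edgeR adjusted p was 0.0588 (Casp8, Chd8 siRNA, replicate block without the Tsc2 siRNA library 1). Of 648 log2 fold changes of the 8 genes recomputed, 602 kept their sign and 46 turned, all of genes that did not pass, so that their signs are not settled. The numbers of all genes called for Chd8 siRNA, for Tsc2 siRNA, and between the knockdowns were 0 in all edgeR fits without the replicate block that kept a filter on low counts, and 0 by limma-voom. They were 87, 63, and 36 with the block and 169, 104, and 61 with the block and no fold-change threshold, where 1, 0, and 1 pathway genes were called. The block changed no call of the 8 genes. DESeq2 called 9, 6, and 5 genes, and edgeR without a filter on low counts 2, 1, and 0. With each library left out, with or without the block, 0 to 108, 0 to 131, and 0 to 130 genes and 0 to 1 pathway genes were called, and 3 to 5 of the 8 genes for the replicate number. Signs turned for Tsc2 siRNA with Casp4 from protein-coding transcripts only (−0.018), Nek7 without scaling (−0.0026), and Aim2 by limma-voom (0.0024), and between the knockdowns for Gsdmd without scaling (−0.0024). With a library left out, the log2 fold change for Chd8 siRNA ranged from −0.15 to 0.30 for Nlrp3, −0.020 to 0.17 for Casp4, −0.048 to 0.25 for Nek7, and −0.11 to 0.27 for Aim2. For Tsc2 siRNA it ranged from −0.33 to 0.23 for Nlrp3, −0.029 to 0.40 for Casp1, −0.069 to 0.12 for Casp4, −0.14 to 0.15 for Nek7, and −0.20 to 0.17 for Aim2. Between the knockdowns it ranged from −0.14 to 0.42 for Nlrp3, −0.28 to 0.084 for Pycard, −0.019 to 0.32 for Casp1, −0.015 to 0.13 for Casp4, −0.12 to 0.12 for Gsdmd, −0.068 to 0.24 for Nek7, and −0.070 to 0.25 for Aim2. The pathway genes named for their fold changes were recomputed after the data were seen, and 30 of 562 values turned sign. For Chd8 siRNA, Il1a (−0.01) was at 0.00048 with DESeq2-type size factors, 0.00049 by DESeq2, and 0.24 by limma-voom and with the replicate block. With a library left out, the log2 fold change for Chd8 siRNA ranged from −0.0035 to 0.56 for Gbp5, −1.94 to 1.32 for Casp12, −0.17 to 0.28 for Il1b, and −0.55 to 0.69 for Il1a. For Tsc2 siRNA it ranged from −2.04 to 0.86 for Casp12, −1.87 to 0.056 for Gsdma, −0.10 to 0.50 for Il1b, and −1.05 to 0.45 for Il1a. With 3 libraries per group, a 1.5-fold change lay within the unblocked 95% intervals of Nlrp3, Pycard, and Casp1 for both knockdowns and of Aim2 for Chd8 siRNA. With the replicate block, the intervals of Nlrp3 no longer held a 1.5-fold change for either knockdown, as given above. The cause of the turned signs was not tested.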
